A study of Mus musculus with 6 samples.

Results

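The genes of iron export, iron storage and heme breakdown described here, 9 of the 54532 genes measured in the series, were followed through 6 RNA-seq libraries of sorted mouse cells. They were chosen by name, with earlier results of these data known. Ensembl identifiers were matched to symbols with the GENCODE M21 annotation, which found all 9. The groups were macrophages of WT mice, macrophages of iron-loaded WT mice (WT/FE), macrophages of mice with leukemia (MA9), macrophages of iron-loaded mice with leukemia (MA9/FE), and the leukemia cells of MA9 and of MA9/FE mice. Each group was 1 library, so nothing below was checked by a replicate. All mice were C57BL/6 and 6 to 8 weeks old. MA9 mice carried transplanted GFP+ leukemia cells that arose from c-kit+ BM cells infected with a retrovirus for the MLL-AF9 fusion gene, so the leukemia is that of a retroviral transplantation model. FE mice were loaded with iron dextran (25 mg/mL) by 6 injections into the peritoneum, 0.2 mL each, and mice without FE received PBS. The sample labels place the macrophages in the spleen, the study's methods describe macrophages of the BM, sorted as GFP- F4/80+ cells with low Gr-1 and intermediate CD115, and this conflict was not settled. The leukemia cells are labelled as cells of the BM. The number of animals behind each library is not given in the sources used here.

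Macrophages that take up old red cells break hemoglobin down and return its iron to the blood. Heme leaves the phagolysosome through the heme transporter Slc48a1 (HRG1). Heme oxygenases, inducible Hmox1 and constitutive Hmox2, split it into iron, carbon monoxide and biliverdin. Blvra is the reductase of biliverdin IXα, and Blvrb is a second biliverdin reductase. The iron is then stored in ferritin, a shell of heavy (Fth1) and light (Ftl1) chains, or leaves through ferroportin (Slc40a1), the iron exporter, and is oxidised for transport by ferroxidases such as ceruloplasmin (Cp). Translation of the ferritin and ferroportin mRNAs is known to be held back, when iron is low, by proteins that bind an iron-responsive element in the 5′ UTR. That control acts on translation, which RNA-seq does not measure.

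The 3 known elements are shown because they mark the members whose translation is known to respond to iron. Each was read from the GENCODE M21 transcript as a window of 30 bases, with the 6-base loop (CAGTGN) in capitals.
Slc40a1: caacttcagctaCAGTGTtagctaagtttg
Fth1: ttcctgcttcaaCAGTGCttgaacggaacc
Ftl1: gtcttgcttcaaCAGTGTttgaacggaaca
In GRCm38 the windows lie in the 5′ UTR, each within 1 exon, at chr1:45925464-45925493 on the minus strand for Slc40a1, at chr19:9982732-9982761 on the plus strand for Fth1 and at chr7:45459778-45459807 on the minus strand for Ftl1. In all 3, each of the 5 bases before the loop can pair with its partner among the 5 bases after it, counting A-T, G-C and G-T pairs. The core, a C, any 5 bases and then CAGTGN, searched on the transcribed strand, occurred in a 5′ UTR of 12.4% of 20728 protein-coding genes (2562), and with a fully paired stem in 0.15% (31). Blvra also holds the core with 3 of 5 stem bases paired, and the letters were not found in the annotated 5′ UTRs of the other 5 members. A match of letters is a description and shows no binding.

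The values are FPKM, reads scaled to exon length and to library depth, as deposited. Between 16085348 and 19518359 reads per library were recovered from them. Intervals below are 95% intervals of these reads, which cover counting error alone and not the difference between mice. Each ratio of reads below is of reads scaled to library depth and by the scaling factors of the 2 libraries compared. Each fold of a gene below is, unless stated, of scaled FPKM with 1 added, which draws folds of low values towards 1. Macrophage markers (15 genes, Mertk, C1qa and Spic among them) were at 1 FPKM or more in all 4 macrophage libraries, where they summed to between 442.2 and 1040.4 FPKM, and 10 of the 15 were so in each leukemia cell library, where they summed to 230.6 and 234.5 FPKM. The macrophage libraries also held B cell markers, 8 genes summing to between 1233 and 2210 FPKM, above the macrophage markers themselves, and plasma cell markers, 6 genes summing to between 996.1 and 2559 FPKM. In leukemia cells these sums were at most 22.7 and 77.6 FPKM. Markers of neutrophils, 10 genes, summed to 8.40 and 6.52 FPKM in WT and WT/FE macrophages and to 1792 FPKM in the MA9 and 908.2 in the MA9/FE library. In MA9 and MA9/FE leukemia cells the same markers summed to 2819 and 2148 FPKM, above every macrophage library. In a bulk library, fewer cells of a type and less RNA per cell cannot be told apart.

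**Figure D1:**
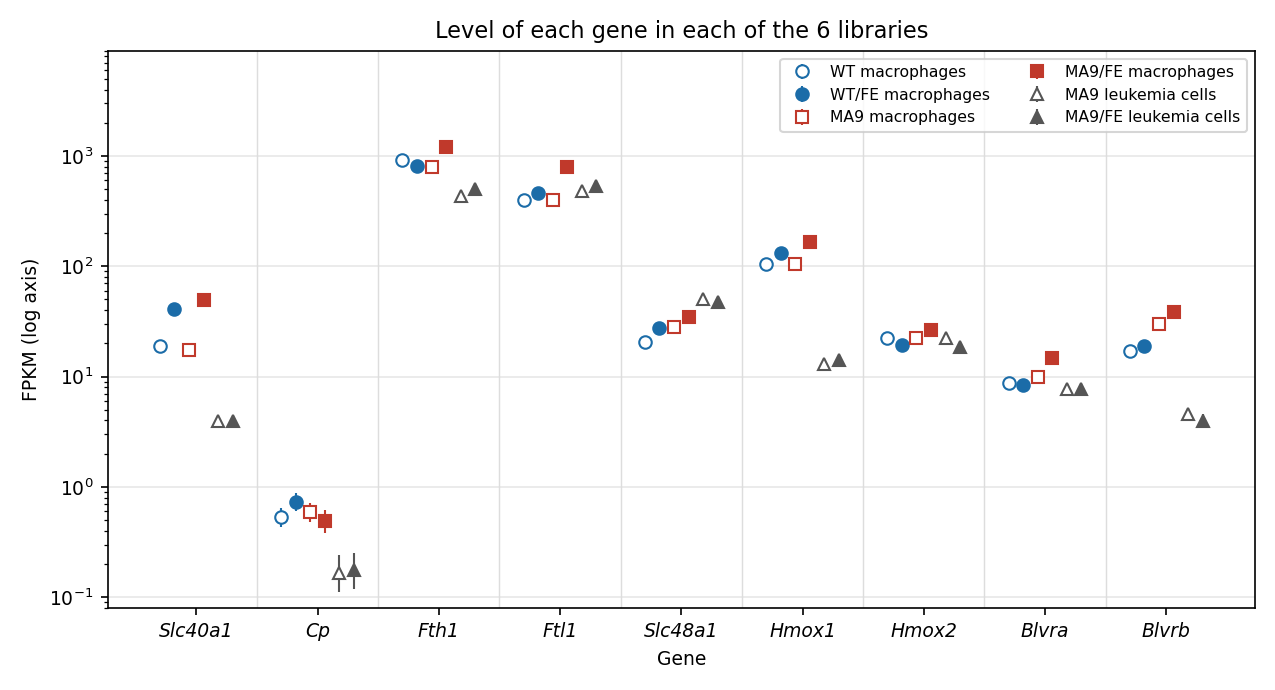
Level of each of the 9 genes, in FPKM on a log axis, in the 6 libraries, with bars for the 95% counting interval. Circles are WT, squares MA9 macrophages and triangles leukemia cells, with filled symbols for iron; Slc40a1, Hmox1 and Blvrb lie far lower in both leukemia cell libraries than in the macrophages, and Fth1 and Ftl1 lie highest of the 9 genes in every library.

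Ferroportin, Slc40a1, was higher with iron in both macrophage pairs and level in the leukemia cells. It stood at 18.8 FPKM in WT (interval 18.2 to 19.5) against 40.8 in WT/FE macrophages (39.8 to 41.8), and 17.6 in MA9 (16.9 to 18.3) against 49.4 in MA9/FE macrophages (48.3 to 50.5), and at 3.95 and 3.93 FPKM in MA9 and MA9/FE leukemia cells. The iron-loaded macrophage libraries were thus the highest, the other macrophage libraries came next, and the leukemia cells were the lowest. With iron it was 2.10-fold higher in WT macrophages, a log2 fold change of 1.07 on the scaled FPKM + 1 scale, and 2.78-fold higher in MA9 macrophages, a log2 fold change of 1.47. The ratio of the reads was 2.16 (interval 2.07 to 2.25) in the first pair and 2.88 (2.75 to 3.01) in the second. In the leukemia cells that ratio was 0.995, with an interval of 0.890 to 1.11. Its percentile among the log2 fold changes of all genes kept was 99.4 in the WT pair and 99.6 in the MA9 pair. Leukemia cells were 3.83-fold lower than macrophages without iron and 10.4-fold lower with it, with 1 FPKM added. With nothing added, the scaled reads of macrophages were 4.55 and 12.8 times those of leukemia cells.

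The macrophage markers moved with Slc40a1. In the libraries with iron, 15 of 15 were above those without iron in the WT pair (median log2 fold change 0.95) and 15 of 15 in the MA9 pair (1.06), against medians of -0.01 and 0.01 over all genes. Their sum was 449.9 FPKM in WT against 799.2 in WT/FE macrophages, and 442.2 in MA9 against 1040.4 in MA9/FE macrophages, and Slc40a1 divided by that sum was 1.22 times as high with iron in the WT pair and 1.19 times in the MA9 pair. The markers rose unequally. Cd68 stood at 80.8 FPKM without and 84.1 with iron in WT macrophages, and at 71.9 and 91.6 FPKM in MA9 macrophages. C1qa stood at 67.7 and 136.5 FPKM in WT, and at 62.8 and 222.6 FPKM in MA9 macrophages. Values divided by the sum thus depend on the markers in it. No defining marker of the list was at 0 in any library. The part of the markers in the result was not tested.

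**Figure D2:**
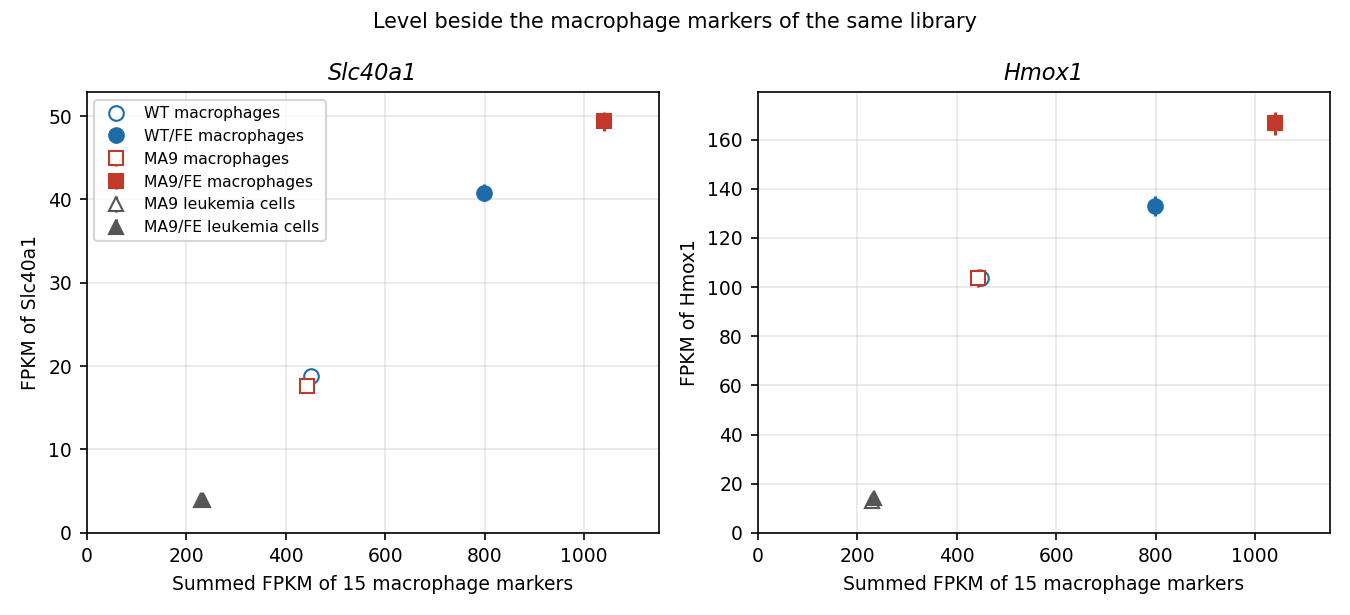
FPKM of Slc40a1 (left) and Hmox1 (right) against the summed FPKM of 15 macrophage markers in the same library, 1 point per library with bars for the 95% counting interval. The WT/FE and MA9/FE macrophages, with marker sums of 799.2 and 1040.4 FPKM, are highest in both panels, and the leukemia cells are lowest.

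Ceruloplasmin, Cp, was the least abundant of the 9 genes. It stood at 0.530 FPKM without and 0.734 with iron in WT macrophages, at 0.590 and 0.487 FPKM in MA9 macrophages, and at 0.167 and 0.176 FPKM in leukemia cells, from between 29 and 118 reads. Its scaled ratio of reads with iron was 1.38 in WT (interval 1.05 to 1.82) and 0.847 in MA9 macrophages (0.617 to 1.16). A change in the MA9 pair was thus not detectable at this depth. Against macrophages, leukemia cells had 0.277 times the reads per length and depth without iron (interval 0.176 to 0.423) and 0.353 times with it (0.223 to 0.546), which falls short of a fold of 2 once 1 FPKM is added. Hephaestin, Heph, the other multicopper ferroxidase listed with it, reached 0.0384 FPKM at most. Cp overlaps Hps3 on the opposite strand, which reached 25.3 FPKM, far above Cp. Whether the libraries kept the strand is not given in the sources used here.

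The ferritin chains were highest in MA9/FE macrophages, and the heavy chain stood on opposite sides of no change with iron in the WT and MA9 pairs. Heavy chain Fth1 stood at 927.9 FPKM in WT against 811.9 in WT/FE macrophages, and 797.8 in MA9 against 1206 in MA9/FE macrophages, and at 433.5 and 505.6 FPKM in MA9 and MA9/FE leukemia cells. The macrophage and leukemia cell values did not overlap. With iron, Fth1 was lower in the WT pair, by a ratio of reads of 0.871 (interval 0.850 to 0.892), and higher in the MA9 pair (1.55, 1.51 to 1.59) and in leukemia cells (1.17, 1.13 to 1.20). Light chain Ftl1 stood at 398.0 FPKM in WT against 458.4 in WT/FE macrophages, and 398.2 in MA9 against 789.0 in MA9/FE macrophages, and at 477.8 and 532.4 FPKM in leukemia cells. It was 2.03-fold higher with iron in MA9 macrophages, a log2 fold change of 1.02, 1.15-fold higher in WT macrophages and 1.11-fold higher in leukemia cells, and the leukemia cells lay within the macrophage range. The fold in MA9 macrophages was at the threshold, and its log2 fold change was 0.98 with no scaling factor, 0.99 with the median of ratios and 0.96 once the trend on exon length was removed. Without iron, the MA9 value of Ftl1 differed from the WT value by less than counting error (ratio 1.01, interval 0.982 to 1.04).

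The ratio of heavy to light chain was lower with iron in macrophages. Fth1 over Ftl1, on the FPKM scale, was 2.33 in WT against 1.77 in WT/FE macrophages, and 2.003 in MA9 against 1.53 in MA9/FE macrophages, 0.760 and 0.763 times as high with iron in the WT and MA9 pairs. In leukemia cells the ratio was 0.907 without and 0.9497 with iron. With iron the macrophage marker sum was 1.78 times as high in the WT and 2.35 times in the MA9 pair, and the ferritin sum 0.958 and 1.67 times. In the MA9 pair 8 of 8 B cell markers and 0 of 10 neutrophil markers were above 0 in log2 fold change. Divided by the macrophage sum, Fth1 was 0.493 times as high with iron in the WT and 0.642 times in the MA9 pair, and Ftl1 0.648 and 0.842 times. The part of the markers in the ferritin values was not tested. On the FPKM scale Fth1 was thus above Ftl1 in macrophages and slightly below it in leukemia cells. FPKM of different genes depend on the lengths used, and that of Fth1 was not settled. Which mRNA was the more abundant was thus not established. The Ftl1 copy Ftl1-ps1, whose reads an aligner can exchange with Ftl1, was between 6.24 and 17.3 FPKM, and Ftl2-ps at most 0.755 FPKM. Summed, the chains were at 1995 FPKM in MA9/FE macrophages, between 1196 and 1326 FPKM in the other macrophages, and at 911.3 and 1038 FPKM in leukemia cells. The intervals of Fth1 rest on a length of 866 bases, the shortest of 4 that gave whole reads, and would be narrower with a longer one.

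The heme transporter Slc48a1 had the reverse order of cells. It stood at 20.8 FPKM in WT against 27.7 in WT/FE macrophages, and 28.0 in MA9 against 35.0 in MA9/FE macrophages, and at 50.9 and 47.3 FPKM in MA9 and MA9/FE leukemia cells, and was the one member with every leukemia cell value above every macrophage value. The WT/FE and MA9 macrophages did not differ beyond their counting intervals (26.2 to 29.3 and 26.5 to 29.6 FPKM). The ratio of reads with iron was 1.33 (interval 1.23 to 1.44) in WT and 1.28 (1.19 to 1.38) in MA9 macrophages, and 0.930 (0.879 to 0.984) in leukemia cells. Divided by the macrophage marker sum it was 0.751 and 0.532 times as high with iron in the WT and MA9 pairs. Slc48a1 overlaps Hdac7 on the opposite strand, which reached 24.4 FPKM.

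Inducible heme oxygenase Hmox1 was far higher in macrophages than in leukemia cells, and higher still in macrophages with iron. It stood at 103.8 FPKM in WT against 132.9 in WT/FE macrophages, and 103.8 in MA9 against 166.6 in MA9/FE macrophages, and at 13.02 and 14.2 FPKM in leukemia cells. Macrophages with iron were highest, WT and MA9 macrophages did not differ beyond counting error (ratio 1.01, interval 0.961 to 1.06), and the leukemia cells were 7.64-fold lower than MA9 macrophages without iron and 11.3-fold lower with it. With iron it was 1.27-fold higher in WT and 1.64-fold higher in MA9 macrophages, log2 fold changes of 0.35 and 0.71, short of a fold of 2. Divided by the sum of the macrophage markers, Hmox1 was 0.721 and 0.682 times as high with iron in those pairs. It was thus higher per read and lower relative to that sum, whose markers rose unequally.

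Constitutive heme oxygenase Hmox2 was nearly level. It ranged from 18.4 FPKM in MA9/FE leukemia cells to 26.2 FPKM in MA9/FE macrophages, with 22.3, 19.5 and 22.4 FPKM in WT, WT/FE and MA9 macrophages and 22.4 FPKM in MA9 leukemia cells. WT macrophages, MA9 macrophages and MA9 leukemia cells did not differ beyond their counting intervals. The ratio of reads with iron was 0.871 (interval 0.790 to 0.960) in WT macrophages, 1.20 (1.09 to 1.32) in MA9 macrophages and 0.822 (0.745 to 0.908) in leukemia cells. Divided by the macrophage marker sum, Hmox2 was 0.493 and 0.497 times as high with iron in the WT and MA9 pairs. Hmox1 over Hmox2 was between 4.64 and 6.82 in macrophages and 0.582 and 0.770 in leukemia cells, so Hmox2 had the higher FPKM in leukemia cells. Hmox2 overlaps Cdip1 on the opposite strand and Gm15859 on its own, at up to 6.25 and 1.08 FPKM.

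Of the biliverdin reductases, Blvrb was higher in macrophages of mice with leukemia and lowest in leukemia cells. It stood at 17.0 FPKM in WT against 18.8 in WT/FE macrophages, and 29.96 in MA9 against 38.7 in MA9/FE macrophages, and at 4.59 and 3.97 FPKM in leukemia cells. Macrophages of MA9 mice were above those of WT mice with or without iron, by a log2 fold change of 1.03 (2.04-fold) with iron and 0.80 (1.74-fold) without. With the median of ratios the first was 0.99, under a fold of 2. Leukemia cells were 5.65-fold lower than macrophages without iron and 8.14-fold lower with it. Blvrb is also abundant in red cell precursors. The 11 erythroid markers measured summed to 100.7 FPKM in WT against 212.4 in WT/FE macrophages, and 304.1 in MA9 against 520.7 in MA9/FE macrophages. In MA9 and MA9/FE leukemia cells, where Blvrb was lowest, they summed to 430.1 and 164.2 FPKM. In MA9 against WT and in MA9/FE against WT/FE, 11 of 11 were above 0 in log2 fold change. With iron, 7 of 11 were above 0 in the WT pair and 6 of 11 in the MA9 pair. In the WT pair Hba-a1 and Hbb-bs were higher by a fold of 2. In the MA9 pair Hba-a1, Hba-a2 and Hbb-bs were higher and Ermap lower by a fold of 2. None of the 11 was at 0, and their part in the result was not tested.

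Blvra, the reductase of biliverdin IXα, stood at 8.76 FPKM in WT against 8.40 in WT/FE macrophages, and 9.86 in MA9 against 14.7 in MA9/FE macrophages, and at 7.68 and 7.74 FPKM in leukemia cells. MA9/FE macrophages were highest, and the other 5 libraries lay between 7.68 and 9.86 FPKM. With iron its ratio of reads was 0.955 (interval 0.825 to 1.10) in WT and 1.53 (1.35 to 1.74) in MA9 macrophages. Divided by the macrophage marker sum, Blvra was 0.540 times as high with iron in the WT pair and 0.634 times in the MA9 pair, and Blvrb 0.623 and 0.549 times, and the part of these markers was not tested. Blvrb over Blvra was between 1.94 and 3.04 in macrophages and 0.598 and 0.512 in leukemia cells.

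With iron, a fold of 2 was reached by Slc40a1 in both macrophage pairs and by Ftl1 in one. That was 1 of 9 members in WT macrophages, where 1.27% of 16754 genes did, 2 of 9 in MA9 macrophages, where 2.46% of 16512 did, and 0 of 9 in leukemia cells, where 0.863% of 15415 did. The median log2 fold change of the 9 was 0.18, 0.57 and 0.01 in that order, and over all genes -0.01, 0.01 and 0.00. In MA9/FE against MA9 macrophages 8 of 9 were above 0, and in WT/FE against WT macrophages 6 of 9.

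**Figure D3:**
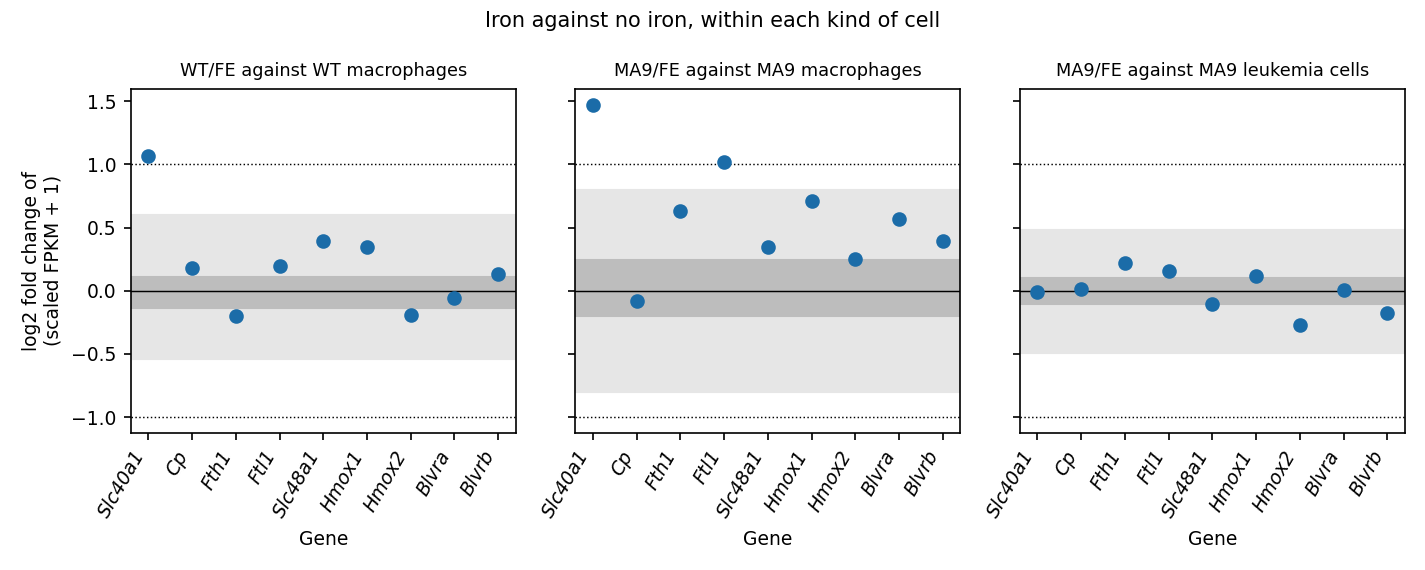
Log2 fold change of scaled FPKM + 1 with iron against without iron for the 9 genes, in WT macrophages, MA9 macrophages and leukemia cells. Dark bands hold the middle 50% and light bands the middle 95% of all genes kept, dotted lines mark a fold of 2, and Slc40a1 lies above the light band in both macrophage panels (1.07 and 1.47) and at -0.01 in the leukemia cells.

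Between MA9 and WT macrophages 0 of 9 members reached a fold of 2, where 4.70% of 16926 genes did, a share at which 0 of 9 says little. Blvrb was the highest at 0.80 and Fth1 the lowest at -0.20 in log2 fold change. The ratio of reads was 1.78 (interval 1.64 to 1.94) for Blvrb and 1.36 (1.26 to 1.48) for Slc48a1. It was 0.868 (0.847 to 0.889) for Fth1 and 0.942 (0.895 to 0.992) for Slc40a1, and the intervals of the other members held no change. Between MA9/FE and WT/FE macrophages 1 of 9 reached a fold of 2, Blvrb, where 4.57% of 16571 genes did. There 8 of 9 were above 0 and the median was 0.43, against 0.01 over all genes. Cp was the exception, with a ratio of reads of 0.674 (interval 0.498 to 0.907). These comparisons share their libraries with the iron comparisons, so the same MA9/FE values enter both.

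Leukemia cells and macrophages differed most. Without iron 3 of 9 members were at least 2-fold lower in leukemia cells (Slc40a1, Hmox1 and Blvrb, at log2 fold changes of -1.94, -2.93 and -2.50), where 20.0% of 17044 genes differed by a fold of 2 in either direction. With iron 4 of 9 were (Slc40a1 -3.38, Fth1 -1.28, Hmox1 -3.49 and Blvrb -3.02), where 22.8% of 16842 genes did. Fth1 was at -0.96 once the trend on exon length was removed. That value depends on the length of 866 bases taken for Fth1, the shortest of 4 that gave whole reads. Over the 4 macrophage and 2 leukemia cell libraries, 6 members had every macrophage value above every leukemia cell value (Slc40a1, Cp, Fth1, Hmox1, Blvra and Blvrb), as 34.5% of 18397 genes did, 1 the reverse (Slc48a1), as 32.7% did, and Ftl1 and Hmox2 overlapped. For Blvra the counting intervals of WT (7.94 to 9.64 FPKM) and WT/FE macrophages (7.53 to 9.33) overlapped those of leukemia cells (6.88 to 8.54 and 6.94 to 8.61). Macrophages and leukemia cells also differ in organ according to the labels, so cell type and organ cannot be told apart.

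**Figure D4:**
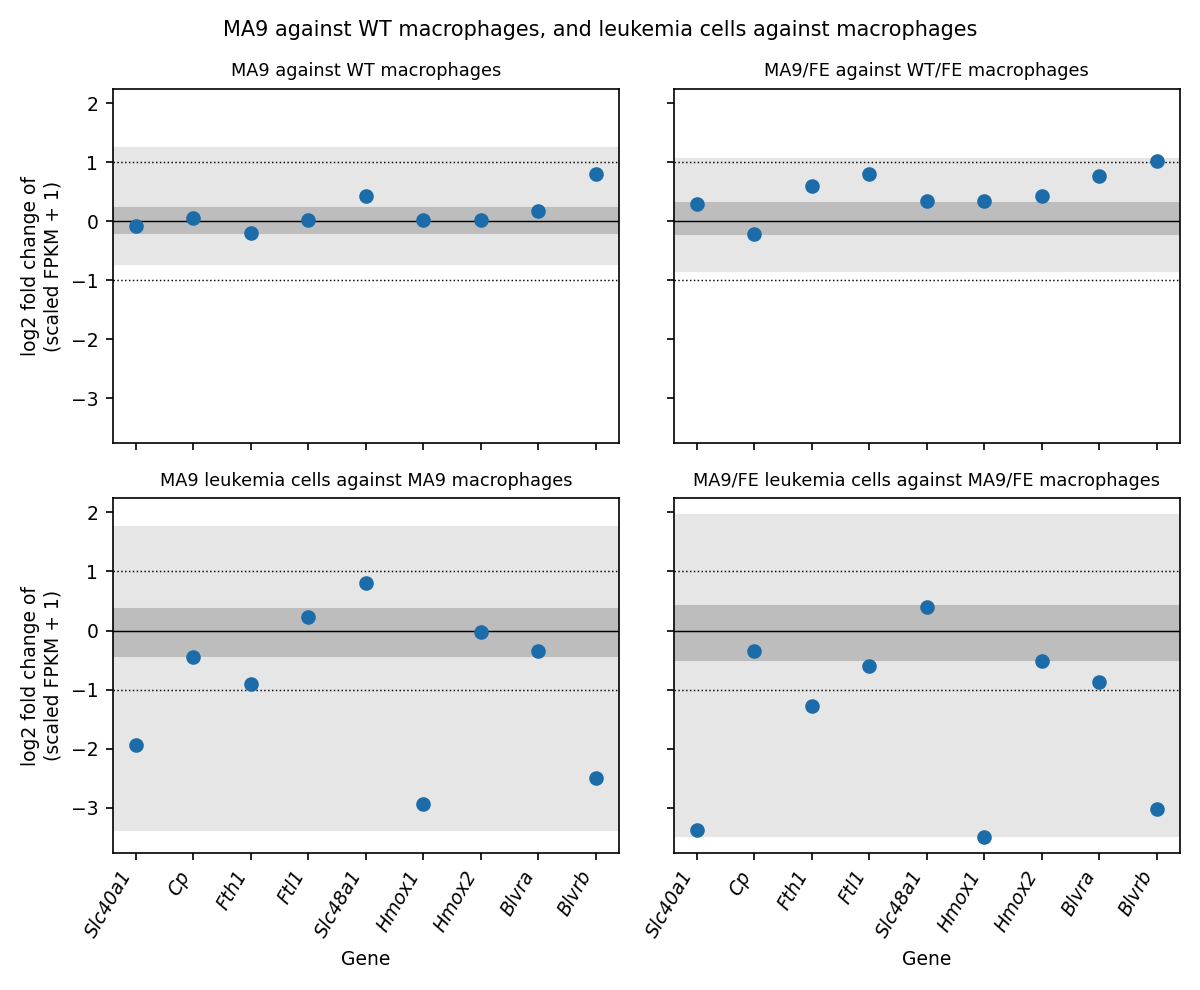
Log2 fold change of scaled FPKM + 1 for the 9 genes between macrophages of mice with and without leukemia (upper panels) and between leukemia cells and macrophages (lower panels). Dark bands hold the middle 50% and light bands the middle 95% of all genes kept and dotted lines mark a fold of 2; Slc40a1, Hmox1 and Blvrb lie lowest in the lower panels and Blvrb highest in the upper ones.

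Tests across libraries treated unlike libraries as repeats and found no member past the threshold. In a limma fit of iron and leukemia over the 4 macrophage libraries, with 1 residual degree of freedom before moderation, 0 of 9 members passed for iron at an adjusted p at or under 0.05, where 0.0123% of 16268 genes (2) did, and 3 of 9 had an unadjusted p under 0.05 (621 of all genes). Slc40a1 had a log2 effect of iron of 1.26 ± 0.19 (SE; limma adjusted p = 0.25, and 0.0025 with a minimum of 50 reads), Ftl1 0.60 ± 0.23 and Hmox1 0.52 ± 0.18 (limma adjusted p = 0.9996 for each). For leukemia 0 of 9 passed, where 2.23% of the genes did (363), and 1 of 9 had an unadjusted p under 0.05, Blvrb, with a log2 effect of 0.92 ± 0.18 (limma adjusted p = 0.061, and 0.0046 with a minimum of 50 reads). In a limma fit of iron over the 3 pairs, with the pair as a block, 0 of 9 members and 0% of 17152 genes passed, and 2 members, Slc40a1 at 0.84 ± 0.30 and Hmox1 at 0.38 ± 0.14, had an unadjusted p under 0.05 (597 of all genes). Without the MA9 pair the effects were 0.53 on Slc40a1 and 0.23 on Hmox1, and without either macrophage pair, or without the block, 0 members had an unadjusted p under 0.05 in limma.

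The other genes of iron and heme handling were counted over 3 lists. Of all genes, 1.27% had a fold of 2 with iron in the WT pair, 2.46% in the MA9 pair and 0.863% in leukemia cells. Of 20 genes of iron uptake and sensing, 16 were kept in each macrophage iron comparison, and none was higher by a fold of 2 with iron in WT or in MA9 macrophages, while Lcn2, the siderophore-binding protein of neutrophils, was lower in MA9/FE (22.6 FPKM) than in MA9 macrophages (47.8 FPKM), with the neutrophil markers named above. Slc11a1 (Nramp1), which moves iron out of the phagosome, stood at 17.6 FPKM without and 31.7 with iron in WT macrophages, at 21.9 and 29.4 FPKM in MA9 macrophages, and at 2.81 and 2.83 FPKM in leukemia cells. Ncoa4, the receptor that takes ferritin to the lysosome, was the reverse, at between 6.21 and 7.57 FPKM in macrophages and 21.1 and 22.6 FPKM in leukemia cells. Steap3, a ferrireductase of endosomes, was 2.85-fold higher in MA9 (4.80 FPKM) than in WT macrophages (1.05 FPKM) once 1 FPKM was added to each. No gene of the list other than Steap3 and Lcn2 had a fold of 2 between the MA9 and WT macrophages.

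Of 17 genes of heme uptake, heme export and their regulators, 15 were kept in WT, 14 in MA9 macrophages and 14 in leukemia cells. With iron, 1 had a fold of 2 in MA9 macrophages and none in WT macrophages or leukemia cells. It was Spic, the transcription factor of macrophages that recycle red cells and also a gene of the macrophage marker list, at 17.0 FPKM without and 27.6 with iron in WT macrophages, 14.7 and 31.8 FPKM in MA9 macrophages, and 0.330 and 0.263 FPKM in leukemia cells. Haptoglobin, Hp, which binds free hemoglobin, stood at 2.68, 6.12, 25.5 and 18.0 FPKM in macrophages and at 413.1 and 424.5 FPKM in leukemia cells. The heme exporter Flvcr1 was 13.4 and 11.0 FPKM in macrophages of MA9 mice without and with iron, and 2.88 and 2.87 FPKM in leukemia cells. Mafg, a small Maf partner of Bach1, was the reverse, at 12.2 and 10.7 FPKM against 36.0 and 34.4 FPKM. Maf itself was at 2.45 and 5.32 FPKM in those macrophages and 0.434 and 1.18 FPKM in leukemia cells. Of 12 NRF2 antioxidant targets, 11 were kept in each macrophage iron comparison and 10 in that of leukemia cells. Of those kept, 0 had a fold of 2 with iron, and their median log2 fold change was -0.01 in WT and -0.16 in MA9 macrophages. Gclm, of glutathione synthesis, was 2.01-fold higher in MA9 than in WT macrophages, and Gsr, the glutathione reductase, was 27.5 and 25.6 FPKM without and with iron in macrophages of MA9 mice, and 214.0 and 238.7 FPKM in leukemia cells. G6pdx, which supplies NADPH, was 65.9 and 65.3 FPKM in leukemia cells against 22.4 and 18.9 FPKM without and with iron in those macrophages, and Srxn1, sulfiredoxin, 3.36 and 3.64 FPKM against 1.25 and 1.10 FPKM.

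The genes whose pattern over the 6 libraries lay nearest to a member were found among 6561 genes, by the root mean square difference of log2(FPKM + 1) about each gene's mean. Nearest to Slc40a1 were Fpr1 (0.24), P2ry13 (0.25) and Mrc1 (0.25), a macrophage marker at 9.13, 19.4, 7.34 and 17.1 FPKM in macrophages and under 1 FPKM in leukemia cells. Nearest to Hmox1 were Nr1h3 (0.15), Sdc3 (0.15) and Clec4n (0.17), and to Blvrb Neil1 (0.12), Vamp5 (0.17) and Isg20 (0.18). Fth1 lay nearest to Cst3 (0.090), the protease inhibitor cystatin C, at 770.3 FPKM without and 706.2 with iron in WT macrophages, at 613.8 and 908.0 FPKM in MA9 macrophages, and at 349.2 and 364.6 FPKM in leukemia cells. After Cst3 came Ctsc (0.096) and Selenow (0.099). Ftl1 lay nearest to Ppp1r35 (0.11), Mpv17l2 (0.12) and Tpgs1 (0.13), and Slc48a1 to Glb1 (0.091), the beta-galactosidase of the lysosome, Smpdl3a (0.094) and Slc25a39 (0.10). With 6 libraries many genes lie near any pattern.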

How the data were processed

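RNA of sorted macrophages (4 libraries) and leukemia cells (2) was sequenced on an Illumina NovaSeq. The authors deposited FPKM per Ensembl gene, and the submitters' processing notes name Bowtie2 2.2.5, RSEM and mm10. The deposited FPKM multiplied by GENCODE M21 exon length were whole multiples of 1 read, within 0.05 reads, for between 96.8% and 97.0% of the values above 0, although RSEM estimates need not be whole. For Fth1 the GENCODE length of 3469 bases gave whole reads in 1 of 6 libraries, so the length of 866 bases, the smallest of 4 that gave them in all 6, was used for its reads. Its FPKM is as deposited. Lengths are of all exons of a gene, such as 9000 bases for Slc40a1, so levels of different genes depend on them. For each of 7 comparisons of 2 libraries, FPKM were scaled by TMM factors (trims 30% and 5%, coded here), 1 was added, and genes with 10 or more reads in either library were kept. A fold of at least 2 was counted with no test. Ratios of reads were scaled by library depth and the same TMM factors, with nothing added. The limma 3.58.1 fits (R 4.3.3) used log2(FPKM + 1) of genes that had 10 or more reads in 2 or more libraries and Benjamini-Hochberg adjusted p-values. Intervals are exact (Clopper-Pearson or Poisson) at 95%. The 4 macrophage libraries enter several comparisons each. Named list genes had a fold of at least 2 and, in the higher library, 100 or more reads, and the 3 nearest genes were named for members that ranged over at least 1 in log2 FPKM + 1. Values in other libraries are given beside them. Members and lists were chosen with earlier results of these data known. Markers of monocytes (6 genes) summed to between 17.1 and 162.4 FPKM in macrophages and 830.4 and 927.9 FPKM in leukemia cells, those of T cells (6) to between 49.1 and 65.7 FPKM and at most 1.09 FPKM, and those of MLL-AF9 leukemia (8) to between 41.2 and 56.2 FPKM and 192.4 and 201.5 FPKM. An erythroid marker, Ahsp, was not analysed here. The steps were tested on simulated data. Other steps ran in Python 3.11.15 (numpy 2.4.6, pandas 2.3.3, scipy 1.17.1, and for figures matplotlib 3.10.9).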

Additional observations from a re-analysis of the deposited data

Results flagged for a closer look

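Some members moved in opposite directions under the same contrast, with both counting intervals clear of no change. The differences were not tested, because each direction rests on 1 pair of libraries. Fth1 had a log2 fold change with iron of -0.20 in WT macrophages, 0.63 in MA9 macrophages and 0.22 in leukemia cells. Hmox2 had -0.19 in WT macrophages, 0.25 in MA9 macrophages and -0.27 in leukemia cells. Slc48a1 had 0.39 in WT macrophages, 0.35 in MA9 macrophages and -0.10 in leukemia cells. In MA9 against WT macrophages, Slc40a1 had a log2 fold change of -0.081 without and 0.29 with iron. Fth1 had -0.20 without and 0.59 with iron in that contrast, from the same 4 libraries.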

How the results depend on the processing

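Of 71 alternative counts of members past a fold of 2 or a test, 64 stayed within 1.5 times the main count, but some of these could not move. The minimum of reads does not enter the fold of a member that is kept, and 0 genes passed in any fit over 3 pairs. The 64 are thus no measure of stability. With size factors by the median of ratios, 0 members in place of 1 reached a fold of 2 in MA9/FE against WT/FE macrophages (Blvrb fell short). In MA9/FE against MA9 macrophages 1 member (Slc40a1) in place of 2 did with no scaling factor, with the median of ratios and after removal of the trend on exon length. In the limma fits over the macrophage libraries, a minimum of 50 reads raised the members passing from 0 to 1 for iron (Slc40a1) and from 0 to 1 for leukemia (Blvrb), and TMM without hemoglobin and immunoglobulin genes gave 1 for leukemia (Blvrb). At 50 reads fewer genes were tested, and the spread shared between genes came from these. The cause of the changed counts was not tested for any setting. No log2 fold change of a member between 2 libraries changed sign while past a fold of 2. In the fit over 3 pairs, leaving out 1 pair at a time turned the sign of small effects: the log2 effect on Cp ran from -0.041 (without the WT pair) to 0.094, that on Hmox2 from -0.23 to 0.020 (without the leukemia cell pair), and those on Blvra and Blvrb from -0.027 and -0.022 (without the MA9 pair) to 0.28 and 0.25. Over the same fits the effect on Slc40a1 ran from 0.53 (without the MA9 pair) to 1.26, and that on Hmox1 from 0.23 (without the MA9 pair) to 0.52. Members with an unadjusted p under 0.05 numbered 2 with all pairs and without the leukemia cell pair, and 0 without either macrophage pair, without the block, with 0.1 FPKM added or with no minimum of reads. Since 0 genes passed over all pairs, the 0 members passing in those fits say nothing of stability. Over all genes, adding 0.1 in place of 1 FPKM raised the number with a fold of 2 with iron from 213 to 784 (WT), 406 to 1499 (MA9) and 133 to 631 (leukemia cells), from 795 to 1980 and 758 to 2083 between macrophages with and without leukemia, and from 3407 to 5809 and 3832 to 6498 between leukemia cells and macrophages. With no minimum of reads the iron counts were 481, 731 and 375, and with 50 reads 116, 234 and 60. Genes passing the limma fit for iron in macrophages numbered 2, but 6 with TMM without hemoglobin and immunoglobulin genes, 73 at 50 reads, and 0 with 0.1 FPKM or no minimum; for leukemia 363, but 215 with 0.1 FPKM, 0 with no minimum and 960 at 50 reads. Pairs here are by kind of cell, since the labels carry no replicate numbers that could pair animals. Depth limits Cp (29 to 118 reads), and the lack of replicates limits every comparison.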
